A study of Mus musculus with 8 samples.

Results

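BMAL1, the core circadian transcription factor that binds E-boxes as a dimer with CLOCK, was mapped by ChIP-seq in HC11 cells, an established mouse mammary epithelial line. The genes described here are the protocadherins, the Fat cadherins and the Dachsous cadherins. They were chosen by name, as every gene of curated mouse RefSeq whose symbol starts with Pcdh together with Fat1, Fat2, Fat3, Fat4, Dchs1 and Dchs2. The rule itself uses only names. This gave 76 of the 26180 genes with an annotated start site. Of these, 58 lie in the clustered alpha (14 genes), beta (22 genes) and gamma (22 genes) arrays of chromosome 18, and 18 are non-clustered. A peak was given to the gene whose transcription start site was nearest to the centre of the peak, and 632 of the 211109 peaks of the 4 lists were nearest to a member.

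All 4 cultures were grown to confluence and kept for 48 h without epidermal growth factor in 10% calf serum with 5 µg/mL insulin. The 2 undifferentiated cultures (UNDIFF1 and UNDIFF2, labelled 6 and 8) were harvested at that point. The 2 differentiated cultures (DIFF1 and DIFF2, labelled 1 and 2) then received lactogenic hormones for 96 h, which were 0.1 µM dexamethasone and 5 µg/mL prolactin beside 5 µg/mL insulin. Chromatin was fixed with 1% formaldehyde, and each culture was its own ChIP experiment with its own input DNA. Each condition is therefore 2 cultures of 1 cell line, and since peak lists hold no expression, the mammary epithelial label could not be checked against marker genes.

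The lists differed in length before any gene was considered. UNDIFF1 held 6534 peaks, UNDIFF2 5475, DIFF1 13683 and DIFF2 185417. DIFF2 stood apart in further ways: its lowest HOMER score was 14 against 23 to 24 in the other lists, and 86.0% of its peaks had their centre in a masked repeat against 21.4 to 26.6%. The tag totals to which the lists were scaled ran from 35.3 M tags (DIFF2) to 80.4 M tags (UNDIFF1). Counts are given below with and without DIFF2, and where 4 values follow each other they are in the order UNDIFF1, UNDIFF2, DIFF1, DIFF2. Distances are from the start site to the centre of the peak, negative upstream. The part of the depth or the repeats of DIFF2 in any count was not tested.

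Protocadherins and the Fat and Dachsous proteins are cadherin-repeat adhesion receptors at the cell surface. The clustered genes each begin with their own promoter and first exon. In the alpha and gamma arrays this exon is spliced to shared constant exons, and in neurons CTCF and cohesin take part in choosing which promoter is used, so that single cells carry different sets of adhesion proteins. The non-clustered delta protocadherins have single loci and act through the actin cytoskeleton. Fat4 and Dchs1 bind each other on neighbouring cells and feed into planar polarity, and in Drosophila their relatives Fat and Dachsous regulate the Hippo growth pathway. Fat1 is the member best known from epithelia, where it takes part in actin organisation at cell contacts.

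Most members were not the nearest gene to any peak. A peak was nearest to 5 of 76 members in UNDIFF1 (6.58%), where 13.2% of all genes were nearest to a peak. The count was 6 in UNDIFF2 (7.89%, against 9.19% of all genes), 8 in DIFF1 (10.5%, against 24.5%) and 28 in DIFF2 (36.8%, against 80.6%). The 28 genes of DIFF2 included every member seen in another list, so 28 of 76 had a peak in at least 1 list, against 81.8% of all genes, and 48 had none. Without DIFF2 the count was 9 of 76. In each list the members' share lay below that of all genes. The clustered and non-clustered genes stood on either side of it in the shorter lists. Of the 18 non-clustered genes 27.8%, 33.3%, 38.9% and 77.8% were near a peak in the 4 lists, and of the 58 clustered genes 0%, 0%, 1.72% and 24.1%.

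The genes differed widely in how much of the genome lies nearest to them. The median length of sequence nearest to a start site was 7.46 kb for the clustered genes, with 36 of the 58 under 10 kb, 159 kb for the non-clustered genes and 42.9 kb for all genes. Together the members held 10.8 Mb, of which 9.95 Mb belonged to the 18 non-clustered genes and 0.828 Mb to the 58 clustered ones. Counts of genes are therefore given beside peaks per Mb, and because peak density differed widely between chromosomes, also beside the density of the gene's own chromosome. On chromosome 18 it was 0.297 peaks per Mb in UNDIFF1, where chromosome 8 had 7.49. Intervals on counts are exact Poisson 95% intervals, those on shares are Wilson 95% intervals, and both cover counting error only.

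The members' share of each list did not separate the conditions. Peaks nearest to a member made up 0.352% of UNDIFF1 (23 peaks), 0.237% of UNDIFF2 (13 peaks), 0.278% of DIFF1 (38 peaks) and 0.301% of DIFF2 (558 peaks). Both DIFF values lay between the UNDIFF values. The mean was 0.289% ± 0.0164 (SD, n = 2) in DIFF and 0.295% ± 0.0810 (SD, n = 2) in UNDIFF, a difference of -0.00539 percentage points (two-sided exact permutation test, p = 1, where 2 against 2 cannot go below 0.33). The direction turned under several other settings. At the density of their own chromosomes the members would have held 23.3, 17.6, 57.6 and 758 peaks in the same order of lists. The observed counts were 0.986, 0.740, 0.660 and 0.736 times these numbers. By this measure both DIFF values lay below both UNDIFF values, with 0.736 in DIFF2 close to 0.740 in UNDIFF2. The mean was 0.698 ± 0.0542 (SD, n = 2) in DIFF and 0.863 ± 0.174 (SD, n = 2) in UNDIFF. The difference was -0.165 (two-sided exact permutation test, p = 0.33, the smallest possible), so the test cannot decide between the conditions.

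**Figure D1:**
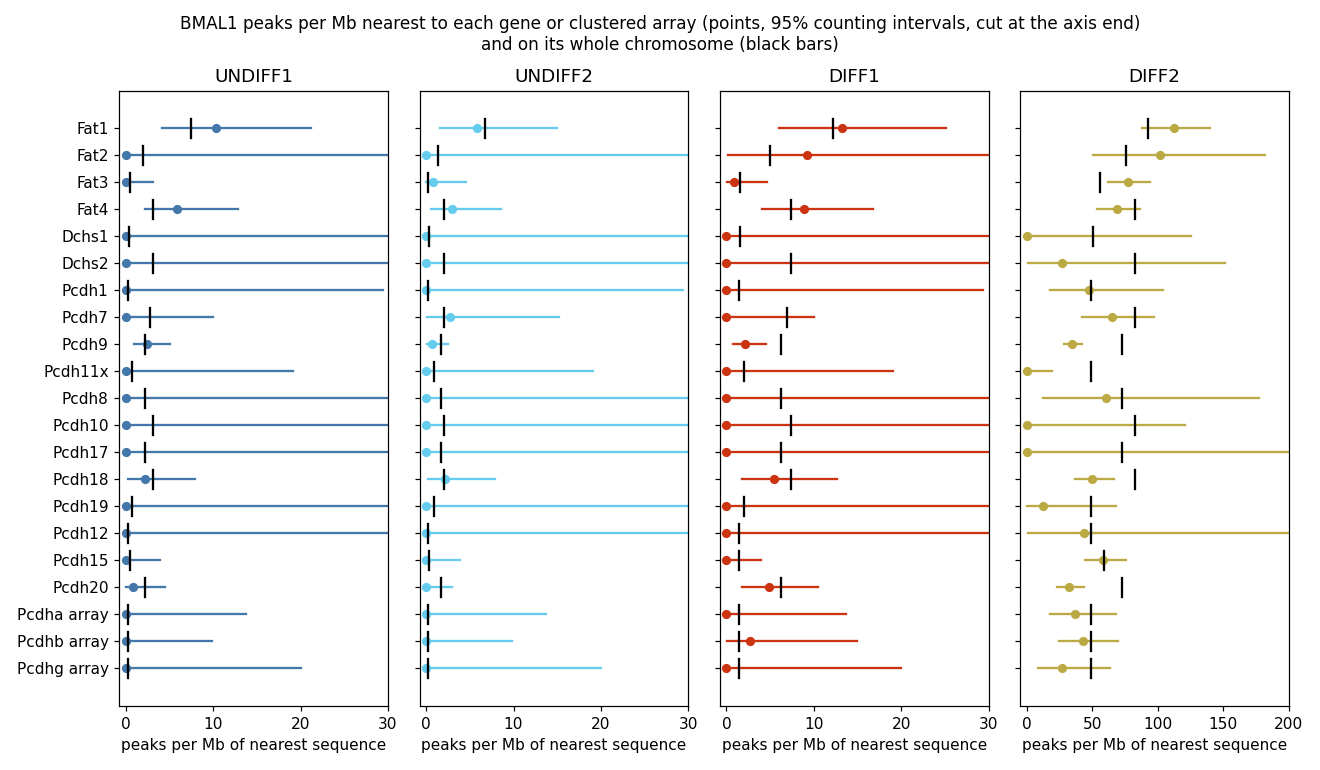
Peaks per Mb of sequence nearest to each of the 18 non-clustered genes and to each clustered array (x axis), one panel per sample, with 95% Poisson intervals as lines and the density of the whole chromosome as a black bar. Fat1 is at 10.3, 5.87, 13.2 and 112 peaks per Mb from the first panel to the last, the 3 arrays are at 0 in both UNDIFF samples, and Pcdh9, Pcdh18 and Pcdh20 lie left of their chromosome's bar in DIFF2.

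The share of members near a peak in all 4 lists was close to that of all genes. Peaks of all 4 lists were nearest to Fat1, Fat4, Pcdh9 and Pcdh18, which is 4 of 76 members (5.26%) against 4.32% of all genes. All of them are among the 7 members with at least 0.5 Mb of nearest sequence, a limit chosen after seeing the data. Of the 903 genes with that much sequence, 41.6% had a peak in all 4 lists, and 4 of the 7 members did. The other members of that size are Fat3, Pcdh15 and Pcdh20.

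Fat1 lies on chromosome 8 (chr8:44950208-45052257 of GRCm38, plus strand), downstream of a stretch of 1250 kb without another annotated start site. Its 0.681 Mb of nearest sequence held 7, 4, 9 and 76 peaks. The rates were 10.3 peaks per Mb (4.13 to 21.2), 5.87 (1.60 to 15.0), 13.2 (6.04 to 25.1) and 112 (87.9 to 140). Chromosome 8 as a whole had 7.49, 6.71, 12.2 and 92.3 peaks per Mb, and each of these lay within the interval for Fat1. The nearest sequence ran from -623.4 to 57.6 kb, so that most of it was upstream. All 20 peaks of UNDIFF1, UNDIFF2 and DIFF1 given to Fat1 lay upstream of the gene, at -616 to -15.4 kb. In DIFF2, 72 of 76 peaks were upstream, and the nearest was centred at -1.87 kb, outside repeats, at 6.04-fold over input. Whatever start site was nearest, the body of the gene held 1, 1, 0 and 5 peaks. Of these only 4, in DIFF2, were nearest to the Fat1 start site.

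The Fat1 peaks of the 3 shorter lists were small. Their scores ran from 23 to 32.5, close to the lowest scores those lists hold. The highest fold was 17.9, for a DIFF1 peak at -255.8 kb that rested on 17.9 ChIP tags and 1 normalised input tag. This peak held the only canonical E-box, CACGTG, among the 74 member peaks of UNDIFF1, UNDIFF2 and DIFF1. The E-box is shown with 27 bases on each side, in capitals, from the plus strand of GRCm38 RefSeq (chr8:44694343-44694402), and it lies outside masked repeats.
Fat1, DIFF1: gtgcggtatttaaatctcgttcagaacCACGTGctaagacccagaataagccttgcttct

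Fat4, the Dchs1 partner, lies on chromosome 3 (chr3:38886940-39011985, plus strand) with 1.02 Mb of nearest sequence, most of it downstream. It was nearest to 6, 3, 9 and 70 peaks, or 5.89, 2.94, 8.83 and 68.7 per Mb. Chromosome 3 had 3.15, 2.06, 7.38 and 82.9 per Mb, so that Fat4 was above its chromosome in 3 lists and below it in DIFF2, each time within the interval of the count. A DIFF1 peak centred at -4.29 kb from Fat4 was the nearest to a start site of all member peaks in UNDIFF1, UNDIFF2 and DIFF1. It had a fold of 3.31 and lay outside repeats, and its 215 bases (chr3:38882541-38882755) are printed because of this position. They hold no CACGTG.
Fat4, DIFF1: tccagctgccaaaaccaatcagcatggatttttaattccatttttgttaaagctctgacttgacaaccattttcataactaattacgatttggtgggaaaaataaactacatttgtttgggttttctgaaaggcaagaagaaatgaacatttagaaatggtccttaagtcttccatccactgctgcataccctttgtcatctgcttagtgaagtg

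Pcdh9, a delta-1 protocadherin, spans 877 kb of chromosome 14 (chr14:93013700-93890679, minus strand) and has the longest nearest sequence of the members, 2.88 Mb. It was nearest to 7, 2, 6 and 100 peaks. The rates of 2.43, 0.695, 2.09 and 34.8 per Mb stood beside 2.21, 1.69, 6.25 and 72.8 per Mb on chromosome 14. In both DIFF lists the interval for Pcdh9 (0.765 to 4.54 and 28.3 to 42.3) ended below the value of the chromosome. Peaks inside the gene's introns numbered 1, 0, 3 and 23.

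Pcdh18, a delta-2 protocadherin whose cytoplasmic part binds the adaptor Dab1 in the mouse, lies on chromosome 3 (chr3:49743296-49757316, minus strand) with 0.917 Mb of nearest sequence. It was nearest to 2, 2, 5 and 46 peaks, or 2.18, 2.18, 5.45 and 50.1 per Mb. The DIFF2 rate (36.7 to 66.9) was below the 82.9 per Mb of chromosome 3, and in the other lists the chromosome's rate was within the interval. None of the 55 peaks was inside the gene.

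Pcdh18 was also the only member with peaks of different samples that overlapped, 1 of 76 (1.32%) against 4.42% of all genes. Of the genes with at least 0.5 Mb of nearest sequence 33.9% had such a pair of peaks, and of the 7 members of that size 1 did. An UNDIFF2 peak (chr3:49426481-49426709) shared 178 bases with a DIFF1 peak (chr3:49426532-49426746), 330.7 kb downstream of the Pcdh18 start site and between genes. The UNDIFF2 peak had 23.5 ChIP tags against 7.2 normalised input tags, a fold of 3.24. The DIFF1 peak had 17.2 against 3, a fold of 5.74. Their scores of 24 and 26.5 lay at or just above the lowest of the lists. The site is printed whole, with the bases that belong to both peaks in capitals (plus strand), since no other site of these genes was listed in more than 1 sample. It lies outside repeats and holds neither CACGTG nor CACGTT.
Pcdh18, UNDIFF2 and DIFF1: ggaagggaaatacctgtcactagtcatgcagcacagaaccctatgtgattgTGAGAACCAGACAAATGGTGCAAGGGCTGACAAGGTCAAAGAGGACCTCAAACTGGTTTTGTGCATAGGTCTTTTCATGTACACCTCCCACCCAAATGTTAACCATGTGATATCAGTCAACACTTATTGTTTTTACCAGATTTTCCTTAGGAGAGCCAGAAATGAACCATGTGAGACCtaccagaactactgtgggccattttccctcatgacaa

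The other peaks of the 3 shorter lists did not meet. For the 74 member peaks in UNDIFF1, UNDIFF2 and DIFF1, the median gap to the nearest peak of another of these lists was 31.5 kb, and 8 of the 74 had such a peak within 5 kb. At Fat4 an UNDIFF1 peak at -161.3 kb and a DIFF1 peak at -158.7 kb were 2.39 kb apart edge to edge, and another such pair, at 731.4 and 728.2 kb, was 2.96 kb apart. At Fat1 the closest pair, at -395.6 kb in UNDIFF1 and -391.9 kb in DIFF1, was 3.45 kb apart. None of these neighbours shared a base.

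**Figure D2:**
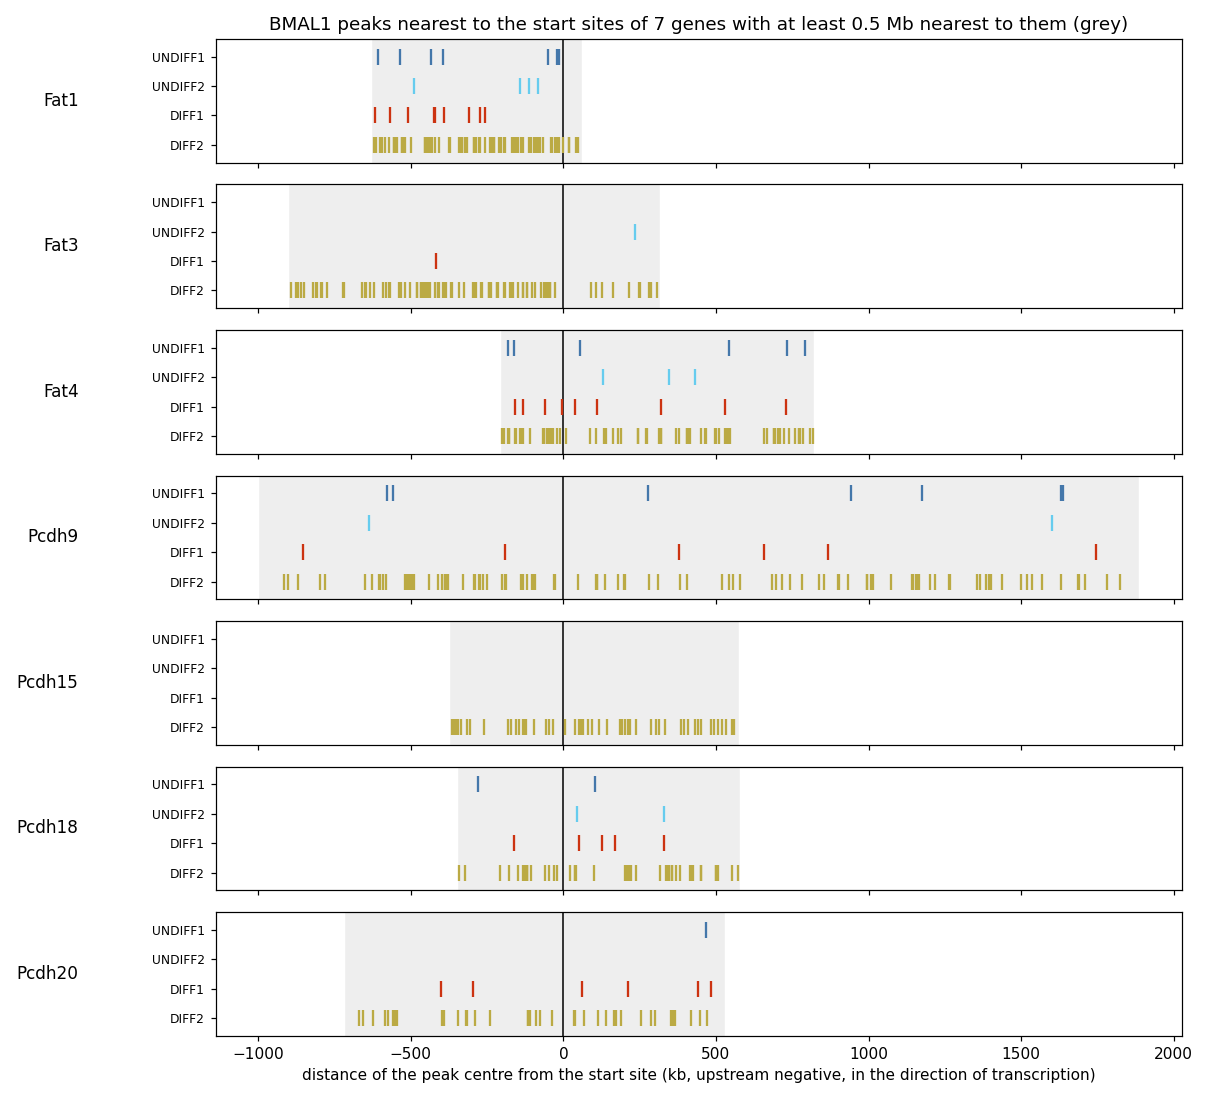
Positions of the peaks nearest to the 7 members with at least 0.5 Mb of nearest sequence, as distance of the peak centre from the start site in kb (negative upstream), one row per sample and the nearest sequence in grey. Fat1 has all its peaks upstream in UNDIFF1, UNDIFF2 and DIFF1, and 72 of 76 upstream in DIFF2, as is most of its nearest sequence. Pcdh15 has 55 peaks in DIFF2 and none in the other samples. The aligned pair of UNDIFF2 and DIFF1 marks at 330.7 kb of Pcdh18 is the overlapping site.

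Fat3 and Fat2 had few peaks outside DIFF2. Fat3, which shapes the dendrites of retinal neurons, lies on chromosome 9 (chr9:15910189-16502054, minus strand), where peaks were rare in the shorter lists. Its 1.21 Mb held 0, 1, 1 and 93 peaks. The DIFF2 rate was 76.9 per Mb (62.1 to 94.2) against 55.9 on chromosome 9, the only member with an interval wholly above its chromosome in DIFF2. Of the 93 peaks 87 were in repeats.

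Fat2, which in Drosophila drives the migration of the follicle epithelium, was 1 of only 2 members near a peak in both DIFF lists and in neither UNDIFF list (2.63% of members against 13.0% of all genes). The other was Pcdhb8. Fat2 (chr11:55250610-55312257, minus strand) held 0, 0, 1 and 11 peaks in 0.108 Mb. At the density of chromosome 11 this sequence would have held 0.210, 0.150, 0.537 and 8.16 peaks, so that 0 peaks in the UNDIFF lists was not distinguishable from the chromosome's level at this depth. The DIFF1 peak lay in a repeat at -43.7 kb, at 6.10-fold over input.

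A DIFF2 peak centred at -0.225 kb from Fat2 was the only peak in the promoter of a member, counted from 1 kb before to 100 bases after a start site. It lay outside repeats, with 23 ChIP tags, 6.6 normalised input tags and a fold of 3.47, at the lowest score of the list, 14. The central 300 bases are printed from the plus strand (chr11:55312333-55312632). The capitals are the bases inside the RefSeq promoter window of the gene, which runs from 250 bases before to 50 after the start site, and neither part holds CACGTG. Since Fat2 is on the minus strand, its start site lies to the left of the printed bases.
Fat2, DIFF2: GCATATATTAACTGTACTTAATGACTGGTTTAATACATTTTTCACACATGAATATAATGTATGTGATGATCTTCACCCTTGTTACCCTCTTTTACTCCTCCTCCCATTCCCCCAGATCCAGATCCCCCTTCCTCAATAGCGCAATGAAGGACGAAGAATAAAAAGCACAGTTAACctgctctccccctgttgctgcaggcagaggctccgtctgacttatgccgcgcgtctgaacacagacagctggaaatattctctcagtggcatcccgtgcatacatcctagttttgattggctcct

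The Dachsous genes had almost no peaks by this measure. Dchs1, the ligand of Fat4, had 0 peaks in all 4 lists in 29.4 kb of nearest sequence, and Dchs2 had 1, in DIFF2, in 36.9 kb. Both intervals were wide. In DIFF2 the upper bounds were 125 per Mb for Dchs1 and 151 for Dchs2, above the 50.5 and 82.9 per Mb of chromosomes 7 and 3. By the body of the gene instead of the nearest start site, Dchs2 (230 kb) held 2 peaks in DIFF1 and 18 in DIFF2, and Dchs1 (34.6 kb) held 1 in DIFF2. All of these were nearest to the start site of another gene.

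As a family the 4 Fat genes were higher against their chromosomes than the 12 non-clustered protocadherins. The Fat genes had 13, 8, 20 and 250 peaks, or 1.44, 1.14, 1.09 and 1.12 times the number at chromosome density. The protocadherins had 10, 5, 17 and 276 peaks, or 0.719, 0.484, 0.450 and 0.564 times that number. Fat was higher in 4 of 4 lists, by a mean of 0.644. This comparison was chosen after seeing the data and is a description of these loci. A two-sided exact paired permutation test over the lists gave p = 0.125, the smallest possible. It cannot decide a comparison chosen from the same data. The contrast also rests on the start sites of all transcripts. With those of coding transcripts only, the Fat genes kept their counts. Pcdh10, Pcdh17 and Pcdh7 were then nearest to 277, 431 and 399 peaks in DIFF2. The ratios to chromosome density were not computed for that assignment.

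Among the remaining delta protocadherins, Pcdh7, a delta-1 member, was nearest to 0, 1, 0 and 24 peaks in 0.368 Mb of chromosome 5. That sequence ran from -0.081 to 367.5 kb and the gene is 415 kb long, so peaks given to Pcdh7 lay inside it by assignment. Of the 24 peaks 23 were in introns. Pcdh1, known from airway epithelium, had 6 peaks in DIFF2 alone, at 47.8 per Mb against 49.2 on chromosome 18. Pcdh8, a delta-2 member that takes part in mesoderm formation in frog embryos, had 3 peaks in DIFF2, all in repeats, and Pcdh19, mutated in a human epilepsy, had 1 there. Pcdh10, Pcdh11x and Pcdh17 were nearest to 0 peaks in all lists. By the body of the gene, Pcdh10 held 1, 0, 0 and 2 peaks, Pcdh11x 0, 0, 0 and 3, and Pcdh17 0, 0, 1 and 1. All of these were nearest to the start site of another gene. For Pcdh11x, whose 0.193 Mb on the X chromosome would have held 9.47 peaks in DIFF2 at chromosome density, the upper bound of 19.1 per Mb was below the chromosome's 49.1. The nearest sequence of Pcdh11x was 49.0% masked and reached only 11.45 kb into the gene, which is 620 kb long.

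Among the members outside the delta groups, Pcdh15, a component of the tip links of hair cells in the inner ear, had 55 peaks in DIFF2 and 0 in the other lists. The 0.940 Mb nearest to it on chromosome 10 would have held 0.422, 0.281 and 1.35 peaks in those lists at chromosome density, and 55.1 in DIFF2. It was thus at its chromosome's level in DIFF2, and 0 peaks elsewhere was within counting error of that level. Pcdh20 was nearest to 1, 0, 6 and 40 peaks in 1.24 Mb of chromosome 14. Its DIFF2 rate of 32.3 per Mb (23.0 to 43.9) was below the 72.8 per Mb of the chromosome. Pcdh12, an endothelial protocadherin, had 1 peak in DIFF2, in a repeat at -4.45 kb.

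The choice of start sites moved these counts. Other annotated transcripts start 0.138 kb upstream of Pcdh10, 0.159 kb upstream of Pcdh17 and 0.162 kb upstream of Pcdh7, and the sequence on that side therefore belonged to them. With coding start sites only, which is a different assignment and not an addition of peaks, Pcdh10 was nearest to 7, 5, 21 and 277 peaks. Pcdh17 was then nearest to 9, 7, 18 and 431, and Pcdh7 to 2, 4, 17 and 399. Together the 75 members with a coding transcript held 48, 33, 110 and 1912 peaks, and 8 of them had a peak in all 4 lists, against 5.30% of 21000 genes. The 8 were Fat1, Fat4, Pcdh7, Pcdh9, Pcdh10, Pcdh17, Pcdh18 and Pcdh20. The share among genes with as much nearest sequence was not computed for coding start sites, so this count has no such baseline. Pcdh10 then had 2 sites where a DIFF1 and a DIFF2 peak overlapped, both in repeats, at -1110 and -1480 kb. Pcdh18 gained a further such site, in a repeat at 1550 kb.

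The clustered arrays were nearly empty outside DIFF2. Their 0.828 Mb held 0, 0, 1 and 31 peaks. Each count was near the number at the density of chromosome 18, which was 0.246, 0.142, 1.16 and 40.8. A count of 0 in this length allowed up to 4.46 peaks per Mb, above the 0.297 and 0.172 per Mb of the chromosome in the UNDIFF lists, so that absence from the arrays could not be shown. Against the non-clustered members the arrays had fewer peaks per Mb in 4 of 4 lists. The non-clustered values were 2.31, 1.31, 3.72 and 53.0 per Mb, and those of the arrays 0, 0, 1.21 and 37.4, a mean difference of -5.42 (two-sided exact paired permutation test over the lists, p = 0.125, the smallest possible). DIFF2 carried most of this mean, with a difference of -15.5 per Mb, and without it the mean was -2.04 over the other lists, an alternative added after seeing the data. Against chromosome density the clustered value was the higher in both DIFF lists, on 1 clustered peak in DIFF1 and by little in DIFF2. The clustered intervals, 0.0306 to 6.73 per Mb in DIFF1 and 25.4 to 53.2 in DIFF2, were too wide to order the groups. The clustered genes had 0, 0, 0.859 and 0.760 times the peaks at that density and the non-clustered genes 0.997, 0.746, 0.656 and 0.735 times. All clustered genes lie on chromosome 18, so membership in an array and that chromosome cannot be told apart.

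The alpha array, whose 14 genes share constant exons, had 10 peaks in DIFF2, nearest to Pcdha12 (2 peaks), Pcdhac1 (2 peaks) and Pcdhac2 (6 peaks), the genes at its downstream end. The beta array, whose genes have their coding sequence in 1 exon each, had 16, of which Pcdhb22 had 5, Pcdhb9 had 4 and Pcdhb1 had 3. The gamma array had 5, nearest to Pcdhga7, Pcdhgb5, Pcdhgc3 (2 peaks) and Pcdhgc4. Per Mb these were 37.1 (17.8 to 68.2) for alpha, 42.8 (24.4 to 69.4) for beta and 27.2 (8.82 to 63.4) for gamma. The 3 intervals overlapped and each held the 49.2 per Mb of the chromosome. Masked repeats made up 40.1%, 44.7% and 20.5% of the arrays' nearest sequence, in the same order, and 30 of the 31 DIFF2 peaks had their centre in one.

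Of the clustered genes only Pcdhb8 was near a peak in a list other than DIFF2. The DIFF1 peak lay outside repeats, 20.6 kb downstream of the Pcdhb8 start site and beyond the end of that gene, with 15.6 ChIP tags, 2.5 normalised input tags and a fold of 6.23. The DIFF2 peak was 18.4 kb downstream, in a repeat, with 13.5 tags against 0.8 and a fold of 16.3, and shared no base with it. The DIFF2 peak outside repeats was nearest to Pcdhb2, in its exon 2.26 kb after the start site, with a fold of 2.67. The peaks closest to a start site were those of Pcdhgb5, at -1.20 kb and 16.4-fold, and Pcdhgc4, at -1.78 kb and 3.30-fold. The latter had 61.5 ChIP tags against 18.6 in the input and, at 48, the highest score of any clustered gene. No clustered gene had a peak in its promoter or one with CACGTG. No sequence of chromosome 18 is shown.

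**Figure D3:**
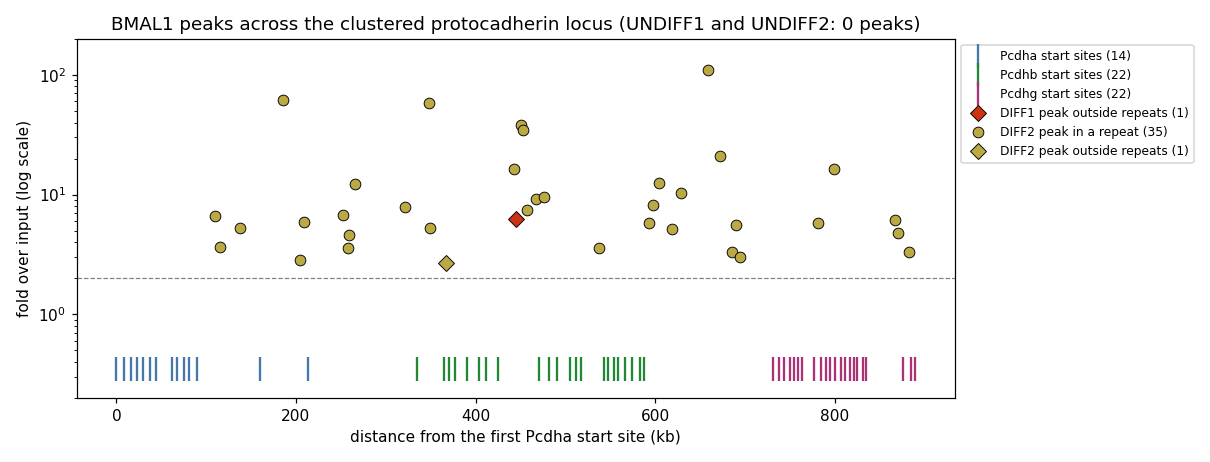
Peaks across the clustered locus (0.912 Mb) by distance from the first Pcdha start site in kb (x axis) and fold over input on a log scale (y axis), with the start sites of the 3 arrays as ticks and the peak caller's 2-fold minimum dashed. The locus holds 0 peaks in both UNDIFF samples, 1 in DIFF1 and 36 in DIFF2, of which 35 are in repeats and 5 are nearest to the non-member genes inside the locus.

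Member peaks lay far from start sites. In the 4 lists 17.4%, 15.4%, 18.4% and 22.6% of member peaks were within 100 kb of the start site, against 60.8%, 55.5%, 63.6% and 62.9% of all peaks. Of the sequence nearest to members 26.9% is that close, and of the sequence nearest to all genes 61.6%. The intervals of the 3 shorter lists (6.98 to 37.1%, 4.33 to 42.2% and 9.22 to 33.4%) included 26.9%, and that of DIFF2 (19.3 to 26.2%) ended just below it. For the non-clustered genes alone 20.8% of the sequence is that close, and 17.4%, 15.4%, 16.2% and 18% of their peaks were, each with an interval that included 20.8%.

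Between genes lay 91.3% (73.2 to 97.6) and 84.6% (57.8 to 95.7) of member peaks in the UNDIFF lists, and 84.2% (69.6 to 92.6) and 75.4% (71.7 to 78.8) in the DIFF lists. The shares of all peaks were 59.7%, 65.5%, 59.5% and 63.2%. Introns of any gene held 2 of 23, 2 of 13, 6 of 38 and 133 of 558 member peaks. Exons held 0, 0, 0 and 3. The members' interval for the intergenic share lay wholly above the share of all peaks in UNDIFF1, DIFF1 and DIFF2, and in UNDIFF2 it included that share. How much of the members' nearest sequence lies between genes was not computed, so this comparison has no such baseline. Pcdh18 is 14 kb long with 917 kb of nearest sequence, Pcdh20 6.65 kb with 1240 kb, and Pcdh9 877 kb with 2880 kb. The part of this sequence in the shares was not tested.

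Repeats followed the list more than the gene. In the UNDIFF lists 34.8% (18.8 to 55.1) and 7.69% (1.37 to 33.3) of the member peaks had a masked centre, and in the DIFF lists 18.4% (9.22 to 33.4) and 88.0% (85.0 to 90.4). For all peaks the shares were 21.4%, 26.3%, 26.6% and 86.0%, each within the members' interval. Masked repeats make up 36.7% of the members' nearest sequence and 36.4% of the genome. Outside repeats DIFF2 kept 67 member peaks, of which Pcdh9 had 16, Fat1 10, Fat4 10 and Pcdh18 8. The 4 genes with a peak in every list still had one in each when all peaks in repeats were left out.

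**Figure D4:**
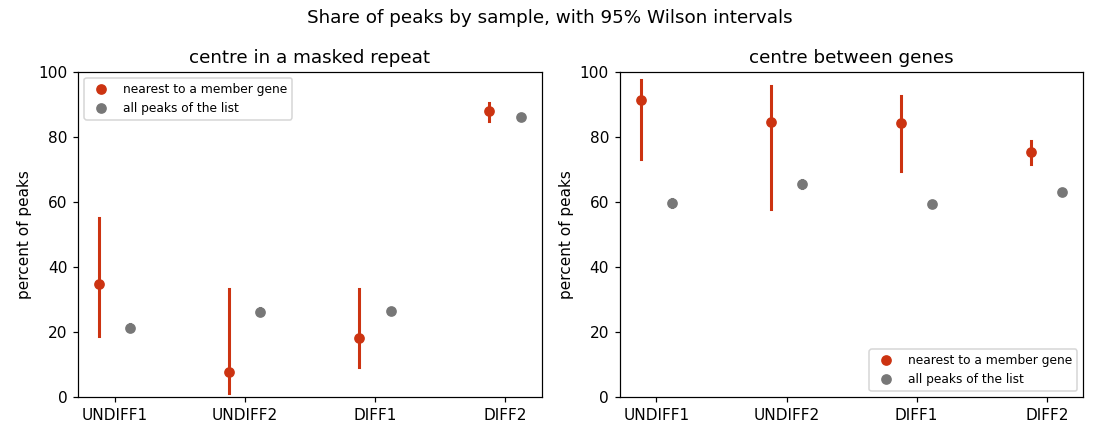
Percent of peaks (y axis) with their centre in a masked repeat (left) and between genes (right), for peaks nearest to a member (red) and all peaks (grey), by sample with 95% Wilson intervals. In repeats the members follow their list, from 7.69% in UNDIFF2 to 88.0% in DIFF2. Between genes the members lie above the whole list in each sample, at 75.4 to 91.3%. The share of their nearest sequence that lies between genes was not computed.

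The fold over input of member peaks was near that of the list in the 3 shorter lists and above it in DIFF2. The medians were 3.21, 3.70, 4.64 and 6.19, and over all peaks they were 3.41, 4.14, 4.31 and 5.15. In DIFF2 26.3% of member peaks (22.9 to 30.2) were at 10-fold or more, against 19.4% of all peaks. The ChIP signal of these member peaks was not higher than that of the list. Their median was 23.5 ChIP tags against 24 for all DIFF2 peaks, and their median score 18 against 19. The median input was lower, at 3.9 against 4.8 tags. The highest folds rested on the fewest input tags, which is in part arithmetic, since the fold divides ChIP tags by input tags. In DIFF2 the 3 highest were 166.7-fold at Fat3 (at -519.2 kb), 132.9-fold at Pcdh7 (at 125.3 kb) and 123.2-fold at Pcdh9 (at 1142 kb). All 3 lay in repeats and had 0.2 normalised input tags, the lowest value in the list. Of the 147 member peaks at 10-fold or more in DIFF2, 110 had at most 2 input tags, or 74.8% (67.2 to 81.2), against 72.5% of all peaks at that fold in DIFF2. All 5 such member peaks in DIFF1 and the 1 in UNDIFF2 had as few, as did 100% and 86.8% of all peaks at that fold in these lists. UNDIFF1 had no such peak, with 6.28 at Pcdh9 its highest member fold. In UNDIFF2 the highest was 12.7, at Fat1 (-488.6 kb) on 1.9 input tags, and in DIFF1, after Fat1, 15.2 at Pcdh9 on 1 input tag and 13.0 at Pcdh20 on 1.5.

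**Figure D5:**
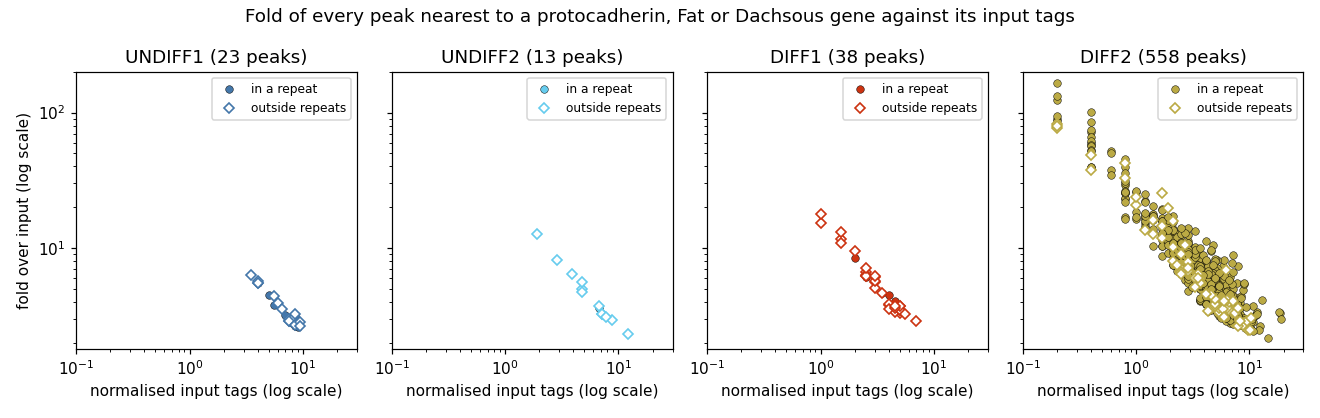
Fold over input (y axis, log scale) against normalised input tags (x axis, log scale) for every member peak, one panel per sample, filled where the centre is in a repeat and open otherwise. In each sample the highest folds stand at the lowest input, 1 tag in DIFF1 and 0.2 tags in DIFF2, and the DIFF2 panel holds 558 of the 632 peaks. The fold divides ChIP tags by input tags, so this pattern is in part arithmetic.

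The E-box was rare in member peaks. CACGTG, a palindrome searched as written, was present in 0 of 23 peaks in UNDIFF1 (0 to 14.3%), 0 of 13 in UNDIFF2 (0 to 22.8%), 1 of 38 in DIFF1 (0.466 to 13.5%) and 6 of 558 in DIFF2 (0.494 to 2.33%). In all peaks the shares were 2.13%, 1.46%, 2.01% and 2.65%, so that the members were below their list in DIFF2 and not distinguishable from it elsewhere at these counts. The variant CACGTT, searched on both strands, was in 0, 1, 1 and 11 member peaks. In DIFF2 this was 1.97% (1.1 to 3.5) against 1.91% of all peaks, and in the shorter lists 1.97%, 2.47% and 2.35% of all peaks held it. Of the DIFF2 sites 5 are printed because they show the surroundings of the motif (capitals, 27 bases on each side, plus strand). Only the Pcdh18 motif, in a peak at -31.5 kb with a fold of 7.47, is outside masked repeats.
Pcdh18, chr3:49788853-49788912: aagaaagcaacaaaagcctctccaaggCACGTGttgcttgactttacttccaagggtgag
Fat1, chr8:44746898-44746957: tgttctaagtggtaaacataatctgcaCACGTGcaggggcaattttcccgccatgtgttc
Fat4, chr3:39295138-39295197: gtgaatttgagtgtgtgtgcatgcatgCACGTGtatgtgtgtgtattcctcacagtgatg
Pcdh7, chr5:58072248-58072307: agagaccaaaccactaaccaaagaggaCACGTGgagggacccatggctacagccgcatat
Pcdh15, chr10:74381299-74381358: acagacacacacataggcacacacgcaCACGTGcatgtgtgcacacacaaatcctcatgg
The promoter windows of RefSeq were matched for 14 of the 76 members, all of them non-clustered (15 windows). None of the 15 held CACGTG, which 7.15% of all 32851 windows do.

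The partners of these genes were read from lists of 20 genes each. Of 20 genes of Fat4-Dchs1 signalling and the Hippo pathway, 6, 2, 7 and 19 were near a peak in the 4 lists, where the shares of all genes were 13.2%, 9.19%, 24.5% and 80.6%. Only Stk3, the kinase MST2, was near a peak in all 4 lists (3, 3, 1 and 29 peaks), 1 of 20 genes against 4.32% of all genes. It was also the only one with overlapping peaks (against 4.42% of all genes), a DIFF1 and a DIFF2 peak in a repeat at -39.09 kb. Lats2, Mob1b and Amotl1, a kinase, its cofactor and a scaffold of the pathway, were near a peak in both DIFF lists and in neither UNDIFF list, with 1 DIFF1 peak each. These 3 of 20 stood beside 13.0% of all genes. Of the transcriptional effectors, Yap1 had 0, 0, 0 and 8 peaks and Wwtr1, its relative TAZ, 0, 1, 1 and 7. Among their DNA-binding partners Tead1 had 0, 0, 0 and 11 peaks, Tead3 0, 0, 0 and 2, Tead4 1, 0, 0 and 8, and Tead2 none.

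Of 20 regulators and effectors of protocadherins, 3, 3, 7 and 19 were near a peak in the 4 lists, beside the same 13.2%, 9.19%, 24.5% and 80.6% of all genes. Nipbl, which loads cohesin, had 2, 1, 2 and 23 peaks, and Ptk2, the focal adhesion kinase, had 2, 1, 1 and 22, so that 2 of 20 were near a peak in all lists, against 4.32% of all genes. The cohesin subunit Rad21, the chromatin protein Smchd1, which silences the clustered genes, Rac1 and Celsr1 were near a peak in both DIFF lists and in neither UNDIFF list, 4 of 20 against 13.0% of all genes. Ctcf had 2 peaks, in DIFF2. No gene of this list had overlapping peaks. Nothing particular to either list of genes is read from these counts.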

How the data were processed

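BMAL1 ChIP and input DNA of 2 UNDIFF and 2 DIFF HC11 cultures were sequenced by the authors. Per the submitters' notes and methods they used FastQC 0.11.7, trimming at Phred 30 with reads of at least 50 bases, Bowtie2 2.2.9 on GRCm38 and HOMER 4.10, each sample against its own input, with HOMER's fold limits over input, local tags and clonal tags set to 2 and its FDR below 0.01. For 1 DIFF pair they split the reads in 5 parts and used 1. The deposited lists give tags in ChIP and input as signal scaled to equal depth, a normalised tag count, a focus ratio as a fraction, a findPeaks score, the fold over input, local tags and clonal tags as ratios, and p-values, the largest over input being 9.93e-05. Lists hold no tags outside peaks, so no gene is described as unbound.

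Peak centres were given to the nearest start site of 45756 curated RefSeq transcripts of GRCm38 with Python 3.11.15, pandas and scipy. Peaks overlapped at 1 bp or more. Repeats are the soft-masked bases of the reference. Functions were tested on simulated peaks. Named genes are members with peaks in all lists, overlapping peaks, a peak within 10 kb of the start site, CACGTG, or 1 of the 3 highest folds of a list, all Fat and Dachsous genes, and clustered genes with a peak. Pcdh8, Pcdh10, Pcdh11x, Pcdh17 and Pcdh19 fall outside this rule and were named after their values were seen, to account for every non-clustered gene. Members and gene lists were chosen with earlier results of these data known. Alternatives were a 4-fold minimum, peaks within 100 kb, repeats left out, equal list lengths, coding start sites, gene bodies, a stricter overlap and leaving out each sample. The sequence of 1 DIFF2 site with CACGTG is not reported here.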

Additional observations from a re-analysis of the deposited data

How the results depend on the processing

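The count of members near a peak in all 4 lists (4) became 2 with 4-fold peaks or with equal list lengths, 0 within 100 kb, 8 with coding start sites and 1 (Fat3) by gene body, and was 4 to 5 when 1 sample was left out. The count in both DIFF lists and neither UNDIFF list (2) became 0 without repeats or with equal list lengths, and was 2 to 21 leaving out 1 sample, the 21 without DIFF1. Members with overlapping peaks (1) became 0 with 4-fold peaks, within 100 kb, with equal list lengths and by gene body, 2 with coding start sites, and 0 to 1 leaving out 1 sample (0 without UNDIFF2 or DIFF1). The DIFF minus UNDIFF difference in the members' share (-0.00539 percentage points) turned to 0.0456 with 4-fold peaks, 0.0110 within 100 kb, 0.249 with coding start sites (two-sided exact permutation test, p = 0.33) and 0.0123 by gene body, and ran from -0.0627 to 0.0519 leaving out 1 sample. Clustered genes near a peak (14) became 2 without repeats, 1 with equal list lengths and 35 by gene body and were 1 to 14 leaving out 1 sample, the 1 without DIFF2. The bodies of the alpha genes overlap each other, as do those of the gamma genes, so by gene body the same few DIFF2 peaks counted for many genes. The other 28 alternative values kept their direction or stayed within 1.5 times, which compares values and not the genes behind them. By gene body the 2 genes in both DIFF lists and neither UNDIFF list were Dchs2 and Pcdh17, in place of Fat2 and Pcdhb8. No paired analysis was possible because UNDIFF and DIFF cultures share no replicate number. With equal list lengths (5475 peaks) members held 20, 13, 17 and 14 peaks, UNDIFF lists first.

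The lists limit all counts: 23, 13 and 38 member peaks in UNDIFF1, UNDIFF2 and DIFF1 leave wide intervals, and DIFF2 supplies 558 of 632. Tags outside peaks were not used here.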
